A study of Mus musculus with 59 samples.

Results

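The genes described here are 10 markers of the liver sinusoidal endothelial cell: Dnase1l3, Pecam1, Gpr182, Egfl7, Stab1, Stab2, Lyve1, Clec4g, Kdr and Cdh5. They were read from a mouse expression array of 45101 probe sets, through every probe set annotated to exactly 1 gene symbol where that symbol was one of these. All 10 genes were present, with 17 of the 34945 probe sets that carry 1 symbol, and they make up 10 of the 18193 genes tested. For each gene, the probe set with the highest mean over the arrays of a normalization is called its main probe set. The rule goes by gene name and annotation and by no genotype difference, but the list was drawn up with earlier results of these data known.

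Whole livers of mice aged 4 weeks (1 month) were profiled. The altered genotypes were an E2F3b knock-in (3bKI, 5 arrays), an E2F1 knock-in (1KI, 10 arrays) and an E2f3a knock-out (3aKO, 10 arrays), and they were compared with wildtype (wt, 12 arrays). All 4 genotypes were on a mixed background of FVB/NT, 129S1/Svlmj and C57BL/6NT. E2F1, E2F3a and E2F3b are transcription factors of the cell cycle, and the comparisons ask how each altered allele changes liver RNA. The sources used here give neither the locus of the knock-ins, nor the cells in which the alleles are altered, nor the number of animals. The p-values therefore measure only how far these samples spread, and that spread may be technical. The 1KI arrays were normalized with the 3aKO and wt arrays (normalization 1), and the 3bKI arrays with the same 3aKO and wt arrays anew (normalization 2). No value is compared across the normalizations. The comparisons against wt share the wt arrays, and those against 3aKO share the 3aKO arrays.

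Liver sinusoids are lined by a fenestrated endothelium without a continuous basement membrane, through which plasma reaches the hepatocytes. These cells are the main scavengers of the blood among endothelia: they take up hyaluronan, collagen fragments and modified lipoproteins through endocytic receptors, and their identity depends on VEGF, Wnt and BMP signalling and on GATA4. The 10 markers fall into 4 roles. Dnase1l3, a secreted nuclease that digests extracellular chromatin, and Egfl7, a secreted matrix protein whose gene hosts the microRNA miR-126, are the secreted products. Kdr, the main signalling receptor for VEGF-A (VEGFR2), and Gpr182, an atypical chemokine receptor, are the receptors. Pecam1 (CD31) and Cdh5 (VE-cadherin) are adhesion proteins of the junctions of all endothelia. Stab1 and Stab2 are scavenger receptors, Lyve1 is a hyaluronan receptor that also marks lymphatic endothelium, and Clec4g (LSECtin) is a C-type lectin. Stab1 and Lyve1 are also made by some macrophages.

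Promoter sequences are shown for the 3 members that passed the test in 1KI against wt, 2 of which rose (Egfl7 and Stab1) and 1 of which fell (Kdr). RefSeq windows (GRCm38.p6) were held for 5 of the 10 genes, in 7 windows, of which 3 belong to Egfl7. No entry was held for Dnase1l3, Pecam1, Gpr182, Lyve1 and Cdh5. The 250 bases before the start were searched on both strands for an E2F motif (TTTNNCGC), 2 ETS motifs (CCGGAA and AGGAAG) and a GATA motif (AGATAA). Matches are in capitals. The windows lie at chr2:26580833-26581082, plus strand (the first of the 3 Egfl7 windows), at chr14:31168642-31168891, minus strand and at chr5:75978456-75978705, minus strand, each written in the direction of transcription.
Egfl7: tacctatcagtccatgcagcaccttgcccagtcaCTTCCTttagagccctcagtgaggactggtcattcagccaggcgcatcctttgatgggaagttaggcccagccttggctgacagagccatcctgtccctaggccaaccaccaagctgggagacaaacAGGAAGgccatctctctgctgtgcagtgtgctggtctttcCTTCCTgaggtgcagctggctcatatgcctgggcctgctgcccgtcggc
Stab1: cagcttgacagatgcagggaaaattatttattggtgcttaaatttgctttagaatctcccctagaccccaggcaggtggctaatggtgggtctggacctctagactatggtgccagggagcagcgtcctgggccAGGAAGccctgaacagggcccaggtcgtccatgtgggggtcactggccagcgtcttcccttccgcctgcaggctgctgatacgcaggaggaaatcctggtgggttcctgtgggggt
Kdr: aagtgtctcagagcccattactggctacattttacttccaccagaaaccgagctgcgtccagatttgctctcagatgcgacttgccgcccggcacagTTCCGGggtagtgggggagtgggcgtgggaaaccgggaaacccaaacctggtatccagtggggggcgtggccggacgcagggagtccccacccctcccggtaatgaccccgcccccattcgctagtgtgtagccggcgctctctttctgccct
The capitals in Egfl7 mark AGGAAG or its reverse complement, with the first letters 216, 89 and 49 bases before the start. In Stab1 they mark AGGAAG 116 bases before the start, and in Kdr the reverse complement of CCGGAA 153 bases before the start. ETS factors are known regulators of endothelial genes. AGGAAG was found in 5 of the 7 member windows (Egfl7, Stab1, Stab2 and Clec4g), beside 29.5% of all 32851 windows. CCGGAA was found in 1 of 7, beside 12.0% of all windows. The E2F letters were found in 0 of 7, beside 4.28% of all windows, and the GATA letters in 0 of 7, beside 9.99%. In Clec4g 2 matches of AGGAAG overlap each other.

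The values are log2 expression values, so that a difference of 1 is a doubling. The main probe sets of all 10 members lay above the median signal of all genes (6.87) in normalization 2, and those of 9 of 10 lay above it (6.91) in normalization 1, where Pecam1 was below. Several technical measures moved with the genotypes, and their part in the results was tested only by the fits named below. Spiked-in hybridization controls averaged 11.6 ± 0.29 (SD, n = 5) in 3bKI, 11.3 ± 0.24 (n = 10) in 1KI, 10.2 ± 0.12 (n = 10) in 3aKO and 10.4 ± 0.50 (n = 12) in wt, each in the normalization of its comparison. All knock-in arrays and wt replicates 1 and 2 were at the higher level, and the other 10 wt arrays and all 3aKO arrays at the lower. Only wt held both levels. A fit with this level as a block therefore estimates it from wt replicates 1 and 2 against the other 10 wt arrays. All knock-in changes in such a fit rest on those 2 arrays. A sex index, the Xist value minus the mean of Y-linked genes, was negative in both (-0.25 and -0.51, normalization 1). It was 8.52 to 9.34 in wt replicates 3 to 7 and negative in replicates 8 to 12. By itself the block therefore mixes the control level with sex. Counts of calls with both terms are given at the end. Poly-A controls averaged 13.8 ± 0.04 in 3bKI, 8.75 ± 0.32 in 3aKO and 9.04 ± 0.39 in wt. The excess of 3′ over 5′ signal at Gapdh and Actb, which grows as RNA is degraded, lay between 0.275 and 0.36 in 3bKI, between 0.545 and 0.755 in 3aKO and between 0.475 and 0.65 in wt. Because 3bKI did not overlap the other genotypes, its genotype, its RNA integrity and its poly-A control level cannot be told apart. In 1KI it was 1.75 in replicate 6, against 0.445 to 0.665 in the other 9 arrays. Libraries of bulk tissue do not tell fewer cells of a type from less RNA per cell.

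In 3bKI livers, 4 of the 10 markers rose against wt and none fell: Dnase1l3, Gpr182, Pecam1 and Egfl7. Of all genes 13.4% rose and 15.9% fell, 29.2% in all (limma, Benjamini-Hochberg adjusted p under 0.05). The median log2 change of the 10 members was 0.24, beside 0.00 over all genes. Against 3aKO, 6 of the 10 rose and none fell, beside 16.5% of all genes that rose and 17.7% that fell (34.2% called in all), with a median change of 0.28 beside 0.02. Stab1 and Clec4g were the other two. Of the 10 members, 3 did not overlap between 3bKI and wt arrays, beside 7.18% of all genes, and 4 did not overlap between 3bKI and 3aKO arrays, beside 12.2% of all genes.

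Of the secreted products, Dnase1l3 had the largest change of the 10 members. Its main probe set read 10.43, 10.18, 10.35, 10.46 and 10.65 in the 5 3bKI arrays, against a lowest value of 8.80, a median of 9.60 and a highest of 10.05 in 3aKO, and 9.30, 9.65 and 9.91 in wt. Every 3bKI array lay above every 3aKO and wt array. The log2 change was 0.82 ± 0.13 (SE, limma, adjusted p = 1.5e-05) against wt and 0.87 ± 0.13 (adjusted p = 7.7e-06) against 3aKO. The dimmer Dnase1l3 probe set rose by 1.41 ± 0.20 against wt and by 1.66 ± 0.20 against 3aKO. The difference between the brighter and the dimmer probe set was 1.06 to 1.62 in 3bKI, 1.79 to 2.52 in 3aKO and 1.47 to 2.21 in wt, so the 2 probe sets of this gene did not move by the same amount. In 1KI replicate 6, the array with the largest 3′ to 5′ difference, it was 3.66.

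Egfl7 read 8.47, 8.41, 8.58, 8.81 and 8.70 in 3bKI. In 3aKO its lowest, median and highest values were 7.60, 8.22 and 8.33, and in wt 8.04, 8.30 and 8.45. The 3bKI arrays lay above all 3aKO arrays, and 4 of 5 lay above all wt arrays. The change was 0.31 ± 0.09 (adjusted p = 0.0088) against wt and 0.44 ± 0.09 (adjusted p = 0.00033) against 3aKO. All 4 Egfl7 probe sets rose in both comparisons, by 0.31 to 0.60 against wt and by 0.44 to 0.63 against 3aKO.

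Of the receptors, Gpr182 rose and Kdr did not pass. Gpr182 read 9.81, 9.76, 9.94, 9.73 and 9.77 in 3bKI, against 8.46, 9.40 and 9.59 (lowest, median and highest) in 3aKO and 9.09, 9.35 and 9.72 in wt. No 3bKI array overlapped either group, and the change was 0.44 ± 0.12 (adjusted p = 0.0072) against wt and 0.56 ± 0.13 (adjusted p = 0.00079) against 3aKO. Kdr read 9.67, 9.56, 9.70, 9.80 and 9.73 in 3bKI, against 9.47, 9.98 and 10.30 in 3aKO and 9.57, 9.94 and 10.14 in wt. All 5 3bKI values were below both group means but inside both ranges, save replicate 2 against wt. The change of Kdr was -0.20 ± 0.10 (adjusted p = 0.15) against wt and -0.25 ± 0.10 (adjusted p = 0.067) against 3aKO, so it did not pass in either. Without 3aKO replicate 8, Kdr was called lower in 3bKI against 3aKO, at -0.30 (adjusted p = 0.015).

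Of the adhesion proteins, Pecam1 read 7.24, 7.11, 7.48, 7.42 and 7.43 in 3bKI, against 5.89, 6.80 and 7.07 in 3aKO and 6.55, 6.96 and 7.07 in wt. The 3bKI arrays lay above all others, with a change of 0.43 ± 0.12 (adjusted p = 0.0086) against wt and 0.60 ± 0.13 (adjusted p = 0.00048) against 3aKO. Cdh5 read 8.04, 7.64, 8.02, 7.93 and 8.12 in 3bKI, against 7.20, 7.76 and 8.24 in 3aKO and 7.43, 7.65 and 8.05 in wt. Its ranges overlapped, and its change of 0.27 ± 0.11 (adjusted p = 0.072) against wt and 0.21 ± 0.12 (adjusted p = 0.17) against 3aKO did not pass. A second Cdh5 probe set, below the median signal of the arrays at 4.80 ± 0.33 in 3bKI, 4.37 ± 0.12 in 3aKO and 4.32 ± 0.21 in wt, rose by 0.47 ± 0.11 against wt and by 0.43 ± 0.11 against 3aKO.

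Of the scavenger and lectin genes, Stab1 and Clec4g rose against 3aKO, and none passed against wt. Stab1 read 8.24, 8.27, 8.41, 8.45 and 8.43 in 3bKI, against 7.61, 8.10 and 8.37 in 3aKO and 7.83, 8.13 and 8.40 in wt. It rose against 3aKO by 0.27 ± 0.10 (adjusted p = 0.031), and its change of 0.22 ± 0.09 against wt did not pass (adjusted p = 0.085). Clec4g read 10.89, 10.80, 11.11, 10.97 and 11.02 in 3bKI, against 10.11, 10.69 and 11.07 in 3aKO and 10.58, 10.80 and 10.99 in wt. It rose against 3aKO by 0.29 ± 0.10 (adjusted p = 0.029), while its change against wt was 0.17 ± 0.10 (adjusted p = 0.21). These 2 calls against 3aKO each held in 12 of the 15 fits that left out 1 array. Stab2 read 9.62, 8.93, 9.34, 9.16 and 9.16 in 3bKI, against a range of 8.58 to 9.34 in 3aKO and 8.76 to 9.41 in wt. It had changes of 0.09 ± 0.12 against wt and 0.15 ± 0.12 against 3aKO, neither of which passed. Lyve1 read 6.88, 6.53, 7.53, 7.15 and 7.81 in 3bKI, against 6.47, 7.10 and 7.54 in 3aKO and 6.42, 7.42 and 8.11 in wt. Its changes of -0.26 ± 0.21 against wt and 0.12 ± 0.21 against 3aKO were close to their errors.

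**Figure D1:**
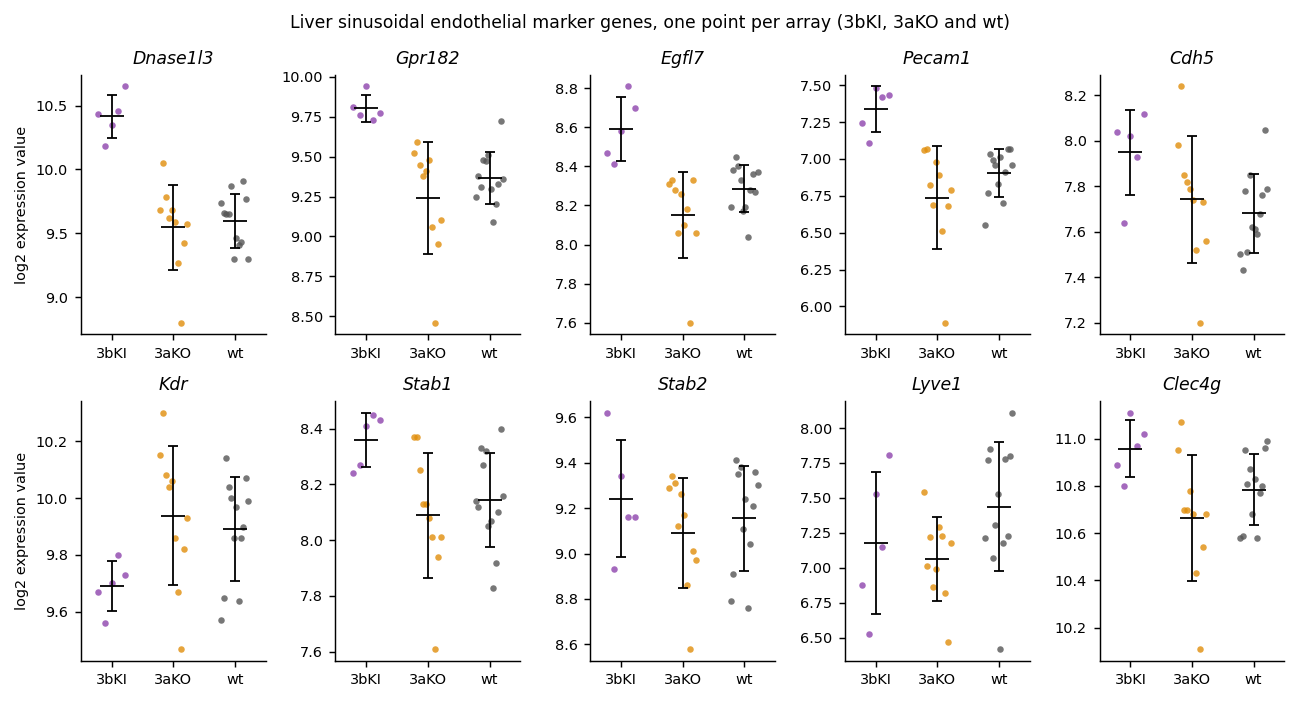
Log2 expression values of the main probe set of each marker (vertical axes) by genotype (horizontal axes: 3bKI, 3aKO and wt), with 1 point per array and bars at the mean ± SD. The 5 3bKI arrays lie above all 3aKO and wt arrays for Dnase1l3, Gpr182 and Pecam1, whereas Kdr and Lyve1 overlap the other genotypes.

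None of these calls held under both technical terms. With the level of the hybridization controls as a block, Dnase1l3 (0.71) and Pecam1 (0.68) kept their calls against wt, and Pecam1 (0.89) against 3aKO. These are 2 and 1 of the 10, where 8.70% and 6.77% of all genes passed with the block. With the block the median change of the 10 members was 0.38 against wt and 0.49 against 3aKO, beside 0.24 and 0.28 without it. These medians rest on wt replicates 1 and 2. In normalization 2 the members lay below the wt mean there, by a mean deviation of -0.17 in replicate 1 and -0.06 in replicate 2. With RNA integrity as a covariate none of the 10 passed in either comparison: against wt Dnase1l3 was at 0.54 (adjusted p = 0.27), Pecam1 at -0.06, Gpr182 at -0.05 and Egfl7 at -0.00. Calls were lost across the array in that fit, in which 3.33% of all genes passed against wt and 0.638% against 3aKO.

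In 1KI livers the members split in direction. Egfl7 and Stab1 rose against wt and Kdr fell, so that 2 of 10 rose and 1 fell, beside 10.2% and 17.5% of all genes (27.6% called in all). The median change of the 10 members was 0.04, beside -0.05 over all genes. Against 3aKO, Egfl7, Stab1 and Lyve1 rose and Kdr fell, 3 and 1 of 10, beside 11.9% and 19.0% of all genes (31.0% called in all). The median was 0.13 there, beside -0.03. No member was free of overlap between 1KI and either group, beside 1.39% of all genes that were free of it against wt and 4.04% against 3aKO.

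Egfl7 had a lowest, median and highest value of 8.41, 8.54 and 9.14 in 1KI, of 7.65, 8.30 and 8.47 in 3aKO and of 8.05, 8.36 and 8.54 in wt. All 10 1KI arrays lay above the mean of each of the other groups. The change was 0.26 ± 0.08 (adjusted p = 0.013) against wt and 0.38 ± 0.08 (adjusted p = 0.00063) against 3aKO. Of the other Egfl7 probe sets, 2 rose by 0.40 and 0.42 against wt, and the other did not pass there, with a change of 0.06. The main probe set is of the _x_at kind. When that kind is left out, the probe set that did not pass stands for Egfl7. Dnase1l3, the other secreted product, read 9.30, 9.86 and 10.30 in 1KI, 8.87, 9.66 and 10.13 in 3aKO and 9.31, 9.71 and 10.00 in wt. Its change of 0.17 ± 0.12 against wt (adjusted p = 0.30) did not pass, and its dimmer probe set had a change of -0.10.

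Kdr read 9.43, 9.69 and 10.04 in 1KI (lowest, median and highest), against 9.49, 10.04 and 10.35 in 3aKO and 9.62, 9.97 and 10.24 in wt. Of the 10 1KI arrays, 8 lay below the wt mean and 5 below every wt array. Kdr fell by 0.22 ± 0.09 (adjusted p = 0.049) against wt and by 0.28 ± 0.09 (adjusted p = 0.017) against 3aKO on the log2 scale. The call against wt held in 7 of the 22 fits that left out 1 array. Replicates 1 and 2 of wt, the 2 at the hybridization control level of the 1KI arrays, read 9.62 and 9.75 for Kdr, both below the wt median. Within that level the change was 0.04. Both wt arrays there had a negative sex index, whereas 1KI replicates 1 to 5 had one of 9.40 to 9.53. Gpr182, the other receptor, had a mean of 9.44 ± 0.25 in 1KI, 9.33 ± 0.36 in 3aKO and 9.46 ± 0.16 in wt, with changes of -0.02 ± 0.11 and 0.11 ± 0.11 against wt and 3aKO.

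Pecam1 read 5.69, 6.82 and 7.42 in 1KI, a range wider than that of wt (6.62, 7.04 and 7.15) on both sides. The lowest value is that of replicate 6. Its change was -0.16 ± 0.15 against wt and 0.03 ± 0.15 against 3aKO. Cdh5 had changes of -0.07 ± 0.09 and -0.11 ± 0.10 at its main probe set. Its dim probe set fell by 0.21 against 3aKO (adjusted p = 0.041, over all probe sets).

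Stab1 read 8.10, 8.45 and 9.06 in 1KI, 7.68, 8.16 and 8.42 in 3aKO and 7.88, 8.16 and 8.47 in wt. In 1KI 9 of 10 arrays lay above the wt mean, and the change was 0.30 ± 0.09 (adjusted p = 0.014) against wt and 0.35 ± 0.10 (adjusted p = 0.0053) against 3aKO. The related receptor Stab2 had a change of 0.10 ± 0.09 (adjusted p = 0.44) against wt. Lyve1 had the widest spread of the members in 1KI and wt, at 6.65, 7.84 and 8.87 in 1KI, 6.51, 7.14 and 7.55 in 3aKO and 6.44, 7.46 and 8.14 in wt. It rose against 3aKO by 0.72 ± 0.21 (adjusted p = 0.0074), with 7 of 10 1KI arrays above every 3aKO array, and its dimmer probe set rose by 0.43. Against wt its change of 0.37 ± 0.20 did not pass (adjusted p = 0.16). Clec4g had changes of -0.10 ± 0.10 and 0.03 ± 0.10 against wt and 3aKO.

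**Figure D2:**
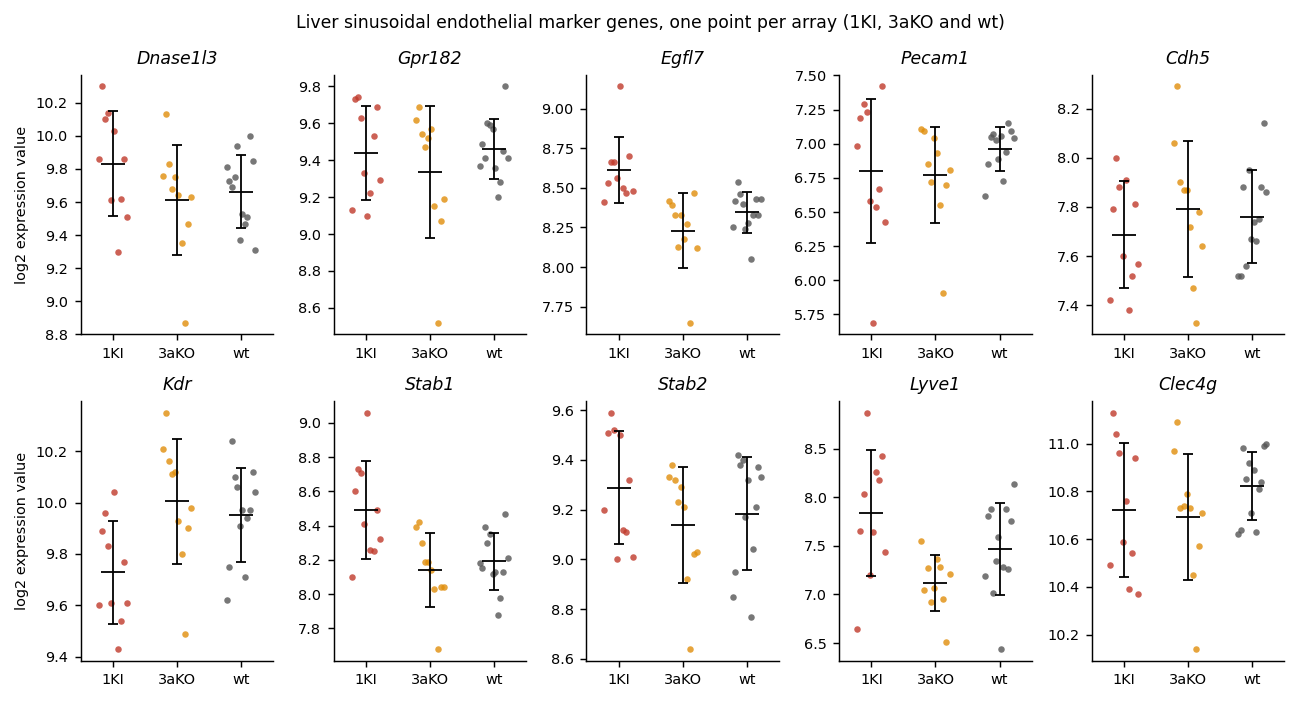
Log2 expression values of the main probe set of each marker (vertical axes) by genotype (horizontal axes: 1KI, 3aKO and wt), with 1 point per array and bars at the mean ± SD. Egfl7 and Stab1 sit higher and Kdr lower in 1KI, with overlap in each, and 3aKO replicate 8 is the lowest 3aKO point in 9 of the 10 panels.

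With the level of the hybridization controls as a block, 0 of the 10 members passed in 1KI against wt or against 3aKO, where 4.30% and 2.29% of all genes did. The changes in that fit rest on wt replicates 1 and 2, so genotype and control level can be told apart only through those 2 arrays. Egfl7 (0.28) and Stab1 (0.33) had estimates against wt close to those without the block, with adjusted p of 0.31 and 0.29, while Kdr was at 0.04. With RNA integrity as a covariate all of these calls were kept, where 28.8% and 34.5% of all genes passed. In normalization 1 the integrity measure was 1.75 in 1KI replicate 6 and 0.445 to 0.745 in all other arrays. The slope of that covariate therefore rests largely on 1 array, and the fit says little about integrity among the others.

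**Figure D3:**
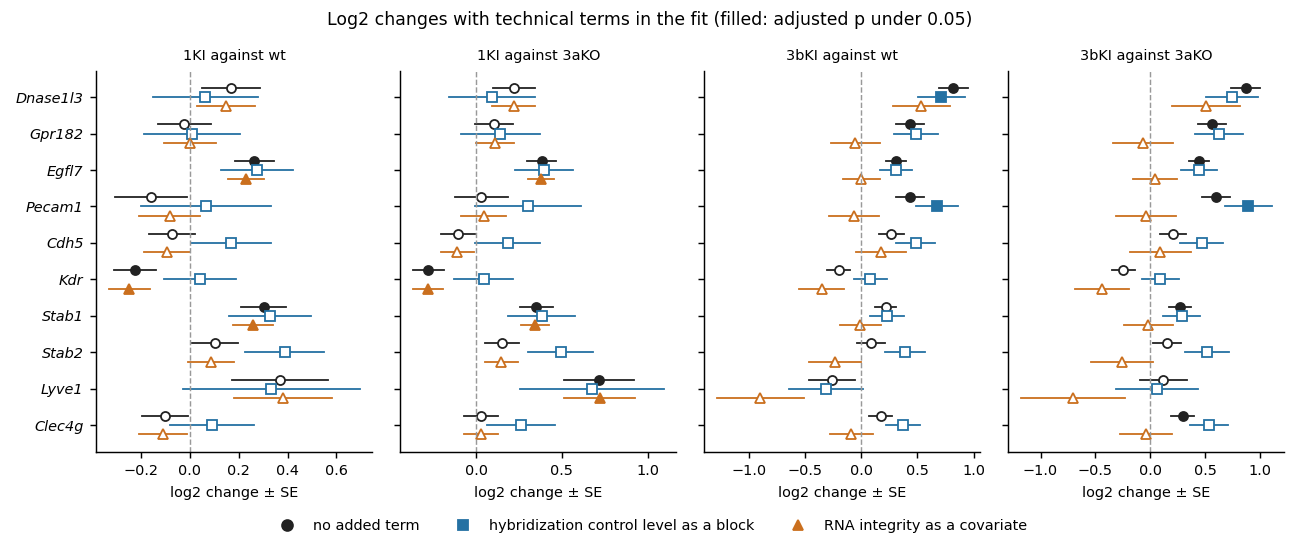
Log2 change ± SE (horizontal axes) of each marker in the 4 knock-in comparisons, fitted without an added term (circles), with the level of the hybridization controls as a block (squares) and with RNA integrity as a covariate (triangles), with filled symbols at an adjusted p under 0.05. The triangles of Pecam1, Gpr182 and Egfl7 lie near 0 in the 3bKI comparisons, and the square of Kdr lies near 0 in the 1KI comparisons.

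In 3aKO livers none of the 10 members passed against wt, beside 0.176% of all genes (0.110% rose and 0.0660% fell), and none reached an unadjusted p of 0.05 in limma. None was free of overlap between 3aKO and wt, beside 0.0110% of all genes. Again 0 of 10 passed with the hybridization control block, beside 0.0824% of all genes, and 0 with the integrity covariate, beside 0.264%. The changes ran from -0.35 ± 0.20 (Lyve1) to 0.05 ± 0.09 (Kdr), with a median of -0.09 beside -0.01 over all genes. Of the 10, 8 had a negative change. Array 3aKO replicate 8 carried much of this: without it the median was -0.02. The same 2 groups in normalization 2 gave changes of the 17 probe sets between -0.38 and 0.06, and again none passed. Unadjusted limma p-values under 0.05 there were 0.030 for the main Lyve1 probe set (-0.38) and 0.032 and 0.041 for other Egfl7 probe sets.

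**Figure D4:**
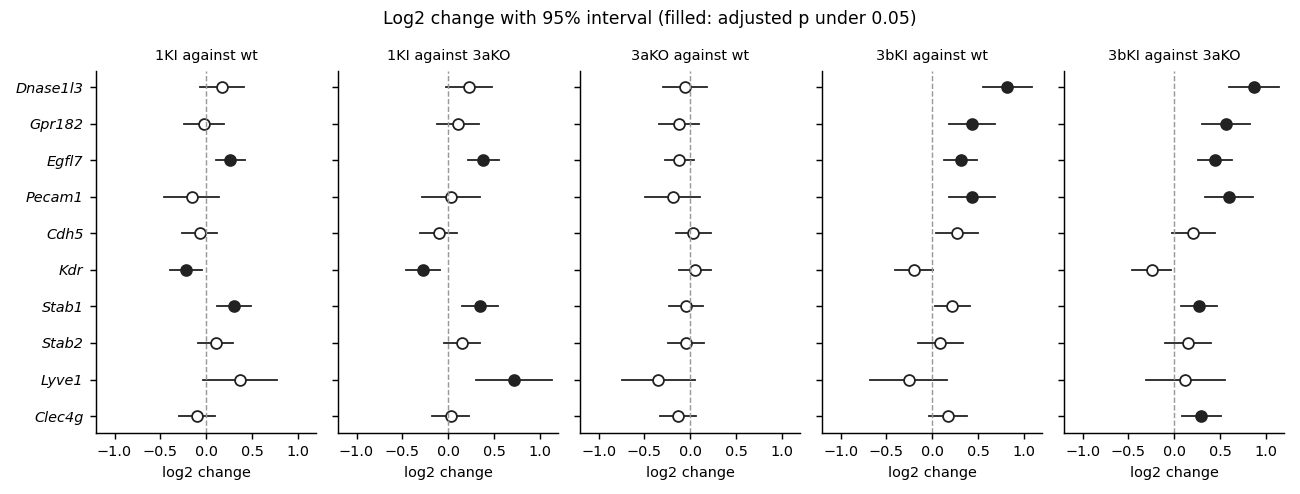
Log2 change with its 95% interval (horizontal axes) of each marker (rows) in the 5 comparisons, with filled circles at an adjusted p under 0.05. Dnase1l3, Gpr182, Egfl7 and Pecam1 are filled in both 3bKI panels, Egfl7, Kdr and Stab1 in both 1KI panels, and none in the 3aKO panel.

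Read at every probe set, with p-values adjusted over all 34945 of them, 10 of the 17 member probe sets passed in 3bKI against wt (all higher), 12 in 3bKI against 3aKO (all higher), 5 in 1KI against wt (4 higher), 9 in 1KI against 3aKO (7 higher) and 0 in 3aKO against wt. The shares of all probe sets were 30.2%, 34.9%, 29.2%, 32.0% and 0.424% in the same order. Among these, the dimmer Clec4g probe set rose against wt in 3bKI (0.25 ± 0.09), where the main one did not pass.

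Within genotypes the markers varied together from array to array. After each array's value was taken as a deviation from its genotype mean, all 45 pairs of members had a positive Pearson r over the 32 arrays of normalization 1, with a median of 0.67, and over the 27 arrays of normalization 2, with a median of 0.73. The tightest pair was Stab2 with Kdr (0.92) in the first and Clec4g with Kdr (0.93) in the second. Lyve1 was the loosest member, with a median r of 0.25 and 0.29 to the other 9, and its pair with Dnase1l3 was the lowest (0.04 and 0.15). The arrays share the RNA, labelling and normalization of a sample, so r is a description. Sex was not removed from the deviations. In 3aKO the sex index was 8.76 to 9.42 in replicates 1 to 5 and negative in replicates 6 to 10 (normalization 1). The mean deviation of the members was positive in 3aKO replicates 1 to 6 and negative in replicates 7 to 10. In wt and 1KI it had both signs among arrays with a high or a low index. The part of sex in these r values, and in those with other lists and genes below, was not tested. The 2 arrays whose mean standardized deviation (each member's deviation divided by its SD over the arrays) lay farthest from the median were 3aKO replicate 8 and wt replicate 8, at -2.32 and -1.02 in normalization 1 and -2.68 and -1.13 in normalization 2. They carry part of the shared variation: without them the median r was 0.57 and 0.54. Not all pairs were then positive in normalization 1, where the lowest was -0.20.

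The mean deviation of the 10 members followed that of 20 other sinusoidal markers (r = 0.94 over the 32 arrays) and of 20 general endothelial genes (0.92), less that of 17 Kupffer cell markers (0.60) and not that of 12 hepatocyte genes (-0.02). In normalization 2 these values were 0.95, 0.92, 0.60 and -0.13. Of these 4 lists, the members followed the 2 endothelial ones most closely. The other endothelial lists counted below had a lower r in both normalizations. It was 0.86 and 0.65 for large-vessel genes and 0.75 and 0.77 for endothelial signals. For VEGF and Notch signalling it was 0.55 and 0.51, and for lymphatic markers 0.20 and 0.10. All these r values include 3aKO replicate 8.

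In 3aKO replicate 8 all 10 members lay below the 3aKO mean, by 0.57 on average, and 9 of the 10 had their lowest 3aKO value there. The 20 other sinusoidal markers were lower there too, by 0.46, as were the 20 general endothelial genes, by 0.45, and the 17 Kupffer cell markers, by 0.18, while the 12 hepatocyte genes were higher by 0.02. In wt replicate 8 all 10 members were below the wt mean, by 0.24 on average. At the other end, 3aKO replicate 2 held the highest 3aKO value of 7 members. In 1KI replicate 6 the members did not move as one: Egfl7, Stab1 and Kdr had their highest 1KI value there and Pecam1 and Gpr182 their lowest.

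**Figure D5:**
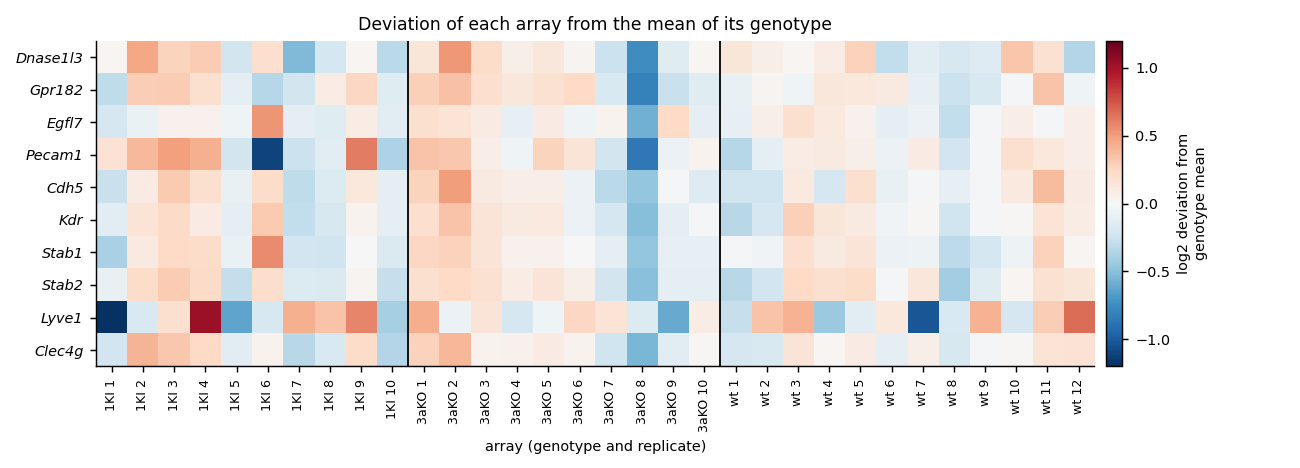
Deviation of each array (columns, grouped as 1KI, 3aKO and wt) from the mean of its genotype, as log2 values by colour, for the 10 markers (rows). The column of 3aKO replicate 8 is blue in every row, with a mean of -0.57, and Lyve1 follows the other rows least.

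The genes most like the members were ranked by the Pearson r of their deviations with the mean standardized deviation of the 10 members over the 32 arrays of normalization 1. They were Mrc1 (0.91), the mannose receptor of sinusoidal endothelium and macrophages, Cldn5 (0.91), Icam2 (0.91), Adgrf5 (0.91), Gpihbp1 (0.90), Oit3 (0.89), Fyn (0.89), Fam167b (0.89), Esam (0.88) and Arrb1 (0.88). In normalization 2 the r of these 10 genes lay between 0.79 and 0.93. Without 3aKO replicate 8 and wt replicate 8 it lay between 0.82 and 0.91 in normalization 1 and between 0.63 and 0.89 in normalization 2. Of the 10, 6 were on the lists of endothelial genes used here.

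Other endothelial genes were counted from lists, to be read beside the shares of all genes called. These were 29.2% in 3bKI against wt, 34.2% in 3bKI against 3aKO, 27.6% in 1KI against wt and 31.0% in 1KI against 3aKO. With the block they were 8.70%, 6.77%, 4.30% and 2.29% in that order. With the integrity covariate they were 3.33% and 0.638% in the 2 3bKI comparisons. Of 20 further sinusoidal markers, 7 rose and 1 fell in 3bKI against wt, with a median of 0.15, and 8 rose and 1 fell against 3aKO. Gata4, the transcription factor of sinusoidal identity, rose by 0.70 ± 0.09 in 3bKI against wt, Tinagl1 by 0.69 ± 0.11, Rasip1, a regulator of vessel lumen formation, by 0.67 ± 0.09, and Flt4 (VEGFR3) by 0.41 ± 0.09. In 1KI against wt 4 of the 20 rose and 5 fell, with a median of -0.05. Ctsl (0.45 ± 0.08) and Flt4 (0.36 ± 0.07) rose, and the coagulation inhibitor Tfpi (-0.51 ± 0.08) and the transcription factor Maf (-0.42 ± 0.10) fell. In 3aKO against wt 0 of the 20 passed. With RNA integrity as a covariate 1 of the 20 rose in 3bKI against wt, with the hybridization control block 2 rose there, and with that block 0 passed in 1KI against wt.

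Of 20 general endothelial genes, 11 rose and 0 fell in 3bKI against wt (median 0.25), and 13 rose and 0 fell against 3aKO (median 0.34). Examples are Ramp2 (0.66 ± 0.09), a partner of the adrenomedullin receptor, Clec14a (0.71 ± 0.13), the transcription factor Sox18 (0.58 ± 0.11) and the TGF-beta co-receptor Eng (0.56 ± 0.08) against wt. In 1KI 5 rose and 3 fell against wt, among them Eng (0.33 ± 0.06), Robo4 (0.21 ± 0.06) and Egfl8 (0.17 ± 0.05) higher and Cd93 (-0.31 ± 0.09) lower. With RNA integrity as a covariate 0 of the 20 passed in either 3bKI comparison, and with the level of the hybridization controls as a block 7 rose in each. With that block 0 of the 20 passed in 1KI against wt.

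For the ligands and partners of Kdr, 18 genes of VEGF, angiopoietin and Notch signalling were counted. Their counts lay near the shares of all genes called, 27.6% in 1KI and 29.2% in 3bKI against wt. In 1KI against wt 3 rose and 3 fell: Vegfa, the main ligand of Kdr, rose by 0.56 ± 0.11, and Notch4 by 0.45 ± 0.09, whereas Angpt1, the agonist of the Tek receptor, fell by 0.47 ± 0.10 and Vegfc by 0.27 ± 0.06. In 3bKI against wt 3 rose and 2 fell, with Notch4 at 0.46 ± 0.09, Dll4 at 0.26 ± 0.07, Angpt1 at -0.63 ± 0.13 and the co-receptor Nrp1 at -0.31 ± 0.08. A list of 12 genes of endothelial signals also held the surface proteins Kit, Cdh13 and Thbd. Of the 12, 2 rose and 4 fell in 1KI and 2 rose and 2 fell in 3bKI, against wt. All genes were called at 27.6% and 29.2%. Cdh13 was among those that rose in both (0.28 in each), and Kit among those that fell in 1KI (-0.41). Ltbp4, a binding protein of latent TGF-beta, rose in both (0.29 ± 0.07 in 1KI and 0.64 ± 0.07 in 3bKI), Bmp6, which controls hepcidin, fell in 1KI (-0.29 ± 0.08), and Bmp2 fell in 3bKI (-0.43 ± 0.15).

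Of 12 genes of capillarised or large-vessel endothelium, 3 rose and 1 fell in 1KI against wt and 2 rose and 1 fell in 3bKI against wt. These counts lay near the shares of all genes called, 27.6% and 29.2%. Plvap, the protein of fenestral diaphragms, rose in 1KI (0.63 ± 0.10) and in 3bKI (0.52 ± 0.13), as did the arterial factor Sox17 (0.26 ± 0.06 and 0.38 ± 0.06). Vwf rose in 1KI (0.39 ± 0.12), and the leukocyte adhesion receptor Vcam1 fell in 3bKI (-0.55 ± 0.16). With the hybridization control block, the VEGF and Notch list had 1 gene that rose in each knock-in against wt, the list of endothelial signals 1 that rose in 3bKI, and the large-vessel list 1 that rose in 3bKI and 1 that fell in 1KI. With RNA integrity as a covariate 1 gene of these 3 lists, from the list of endothelial signals, passed in 3bKI against wt. Of the 4 lymphatic markers, which matter for Lyve1, 0 rose and 3 fell in 1KI and 0 rose and 2 fell in 3bKI against wt. Among them were Prox1 (-0.37 and -0.86), a gene that hepatocytes also express, and Reln, which is also on the stellate list. The calls in 1KI had limma adjusted p of 0.046 to 0.049. With the hybridization control block 1 fell in each knock-in, and with the integrity covariate 1 fell in 1KI and 0 passed in 3bKI.

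Markers of other cells were counted in the same way. The shares of all genes called were again 27.6% in 1KI and 29.2% in 3bKI against wt, and 31.0% in 1KI against 3aKO. Of 17 Kupffer cell markers, 0 passed in 1KI against wt (median -0.12), and 5 fell against 3aKO, among them Marco (-0.90 ± 0.26) and Timd4 (-0.64 ± 0.15). In 3bKI against wt 3 rose and 1 fell (median 0.16), with Cd5l (0.54 ± 0.15), C1qc (0.52 ± 0.17) and Folr2 (0.41 ± 0.13) higher and Cd163 (-1.06 ± 0.26) lower. The mean level of the 17 genes lay between 8.27 and 9.76 in 1KI, 8.73 and 9.63 in 3aKO and 8.67 and 9.02 in wt. In the other normalization it lay between 8.48 and 9.24 in 3bKI, 8.69 and 9.58 in 3aKO and 8.63 and 8.97 in wt. Of 12 hepatocyte genes 1 rose in 3bKI against wt, Ass1 of the urea cycle (1.07), and 2 rose in 1KI, Ass1 (1.25) and Hpx (0.09). Of 14 stellate cell and fibroblast genes 2 rose and 4 fell in 3bKI and 4 rose and 1 fell in 1KI. Of 10 lymphocyte genes 2 rose in 3bKI and 3 fell in 1KI, and of 7 erythroid genes 1 rose in 3bKI, Alas2 (1.09), and 0 passed in 1KI. Of 5 bile duct genes 1 rose in 3bKI and 1 fell in 1KI. With the hybridization control block 0 of the Kupffer cell, lymphocyte, erythroid and bile duct genes passed in any knock-in comparison. The stellate list then had 0 in 1KI and 1 that rose and 1 that fell in 3bKI, and the hepatocyte list 1 that rose in each knock-in against wt. With the integrity covariate 0 genes of these 6 lists passed in 3bKI against wt or 3aKO. The part of these cells in the changes of the members was not tested.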

How the data were processed

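Per the labels' protocols, total RNA was extracted from liver with Trizol and 5 µg of it was labelled as biotinylated cRNA. The files hold log2 expression values as deposited, which the authors normalized across arrays by an unstated method. The log base was read from the values, which run from 2.13 to 15.06. The 59 columns hold 37 arrays, of which 22 (wt and 3aKO) stand in both normalizations, with an r of at least 0.999 for each array and a largest difference of 0.35 for a member probe set.

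Probe sets were named from the platform annotation. Of the 34945 with 1 symbol, 34741 matched RefSeq (GRCm38.p6) by Entrez ID and 0 symbols changed. Of all probe sets 932 had several symbols, 9160 none and 64 were controls, and these were not tested. The brightest probe set stood for each of 18193 genes, of which 9010 had more than 1. Dim genes were kept.

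All arrays of a normalization entered 1 linear model in limma 3.58.1 (R 4.3.3, eBayes with no trend). Within each comparison, adjustment over all genes followed Benjamini and Hochberg, with calls at an adjusted p under 0.05. Errors of changes are moderated standard errors, and errors of means are SDs. The fit was tested on simulated data. The number of arrays limits the precision. The main fits did not pair arrays by replicate number. Of same-numbered arrays, the deviations correlated above 0.1 in 4 of 10 pairs in 1KI against wt and in 1 to 7 pairs in the other comparisons. The 7 were in 1KI against 3aKO, where the median r was 0.24 and 5 of 10 arrays correlated best with their own number. Some pairing there is therefore not excluded.

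The members and the 12 other lists (165 entries) were chosen with earlier results of these data known. All members are named. Of each other list, counts and at most 4 of the called genes with the smallest p are named. The 10 genes most like the members are named by r over normalization 1. The alternatives are given at the end.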

Additional observations from a re-analysis of the deposited data

Results flagged for a closer look

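In groups of 10 or 5 arrays, 5 of the 30 sets of values tested (10 members in each of 3 groups) held an array whose gap to its nearest neighbour was large against the range of its group, a rule that chance meets in about 1 of 20 groups. In 1KI replicate 6 Egfl7 was at 9.14, with the next 1KI array at 8.70. That array also had the largest 3′ to 5′ difference (1.75) and the lowest agreement with its genotype (median r of 0.983, against 0.991 to 0.995 in the others). In 3aKO replicate 8 Pecam1 was at 5.91 (next 6.55), Gpr182 at 8.52 (next 9.07), Egfl7 at 7.65 (next 8.12) and Stab1 at 7.68 (next 8.03), all in normalization 1. Its 3′ to 5′ difference was 0.745. The 12 wt arrays were not tested this way.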

How the results depend on the processing

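The number of members called changed most with the technical terms. With the level of the hybridization controls as a block, or with the block and a sex index, it was 0 in 1KI against wt (3 without) and 0 in 1KI against 3aKO (4 without), 2 in 3bKI against wt (4 without) and 1 in 3bKI against 3aKO (6 without). Among arrays of the higher level alone it was 0 in either knock-in against wt, with 2 wt arrays there. The share of all genes called in that fit is not given here, so this 0 is not a result about the members. With RNA integrity as a covariate the number called was 0 in both 3bKI comparisons, with median changes of -0.06 and -0.04. The hybridization control block gave medians of 0.38 and 0.49 there. Directions turned for Kdr in 1KI, at 0.043 with the block and within the higher level against wt and at 0.044 with the block against 3aKO. With the integrity covariate they turned in 3bKI against wt for Pecam1 (-0.062), Gpr182 (-0.052) and Egfl7 (-0.0010), and in 3bKI against 3aKO for Pecam1 (-0.039), Gpr182 (-0.066), Stab1 (-0.018) and Clec4g (-0.042). Dnase1l3 kept its direction in 3bKI against wt under all 16 alternatives (0.54 to 1.12) and its call in 14. Egfl7 kept its call in 1KI against wt in 13 of 18 alternatives. Without probe sets of the _x_at kind its change there was 0.058 and did not pass. Leaving out 1 array gave 2 to 3 members called in 1KI against wt, 4 to 4 in 1KI against 3aKO, 0 to 0 in 3aKO against wt, 4 to 6 in 3bKI against wt and 4 to 7 in 3bKI against 3aKO. In 3aKO against wt 0 members passed under any of 19 alternatives. The replicate block gave 2, 4, 0, 3 and 5 members called in the order 1KI against wt, 1KI against 3aKO, 3aKO against wt, 3bKI against wt and 3bKI against 3aKO. The counts of fits that left out arrays or used the replicate block stand without shares of all genes. They show only how steady the calls were. Leaving out 1KI replicate 6 and 3aKO replicate 8 together, an alternative chosen after seeing the data, gave 3, 4 and 0 in the first 3 of these. In the 3bKI comparisons, where 3aKO replicate 8 alone was left out, 6 members rose against wt, and against 3aKO 6 rose and 1 (Kdr) fell. The causes were not tested. The second Cdh5 probe set lies below the median signal of the arrays, which limits what it shows.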
